A study of Mus musculus with 167 samples.

Results

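The miR-200 family is a set of 5 related microRNA (miRNA) genes, and its mature arms were followed through 5 tissues of mice whose chest had been irradiated. The members were taken by name alone, as the 8 mature arms of miR-200a, miR-200b, miR-429, miR-200c and miR-141 chosen for description out of 1915 miRNAs counted. They comprise all 5 of the 3p arms, which are the abundant strands, and 3 of the 5p arms. Abundance is given throughout as RPM, the reads of a miRNA per 1000000 miRNA reads of its library.

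The tissues were sequenced to find changes in miRNA abundance months after whole thorax lung irradiation (WTLI), a single exposure given with the remaining body shielded. C3Hf/Sed/Kam (C3H) mice, all female, were sampled in month 4 (7 WTLI and 8 sham irradiated), and C57Bl/6 (C57) mice in month 6 (5 WTLI, of which 1 was female, and 15 sham irradiated, of which 7 were female). Lung, heart, brain and the red cell (RBC) fraction of blood were sequenced from each of these 35 mice, and the white cell (WBC) fraction from 6 WTLI and 5 sham C3H mice and from 5 WTLI and 11 sham C57 mice. Lung and heart lay in the chest and brain outside the exposed strip, and strain, month and in part sex cannot be told apart. All irradiated mice sampled were ones that had lived to the endpoint of their strain after a dose chosen to be lethal to most, so the groups describe survivors.

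Library totals ranged from 1794995 to 7865102 counts, so 1 count was worth well under 1 RPM. The organ labels held against marker miRNAs, since miR-208a-3p (heart muscle), miR-124-3p (neurons) and miR-34c-5p (ciliated airway cells) were each higher in all 35 libraries of their own organ than in any library of another. The blood fractions separated less. The leukocyte miRNA miR-223-3p exceeded every other library in 13 of 27 WBC libraries, and the erythroid miR-451a did so in 0 of 35 RBC libraries, because WBC libraries reached up to 60075 RPM against 41117 RPM in RBC. Bulk tissue was sequenced, so fewer cells of a type and less of a miRNA per cell cannot be told apart.

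MiRNAs of this family are known as markers and guardians of the epithelial state. They repress Zeb1 and Zeb2, transcription factors that silence E-cadherin and push cells toward a mesenchymal form, and Zeb1 and Zeb2 in turn repress the miR-200 genes. In lung they are expressed in airway and alveolar epithelium, whereas most neurons, heart muscle cells and blood cells are not epithelial.

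A miRNA recognises its targets chiefly through its seed, bases 2 to 8 from the 5′ end, and the family falls into seed groups that cut across its genomic clusters. The mature sequences are shown because the seed groups and the near identity of arms from different chromosomes bear on every level reported. They were taken from RefSeq (GRCm38.p6), are written 5′ to 3′, and have the seed in capitals.
mmu-miR-200a-3p: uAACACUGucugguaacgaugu
mmu-miR-141-3p: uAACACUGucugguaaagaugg
mmu-miR-200b-3p: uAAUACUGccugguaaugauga
mmu-miR-200c-3p: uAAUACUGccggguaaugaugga
mmu-miR-429-3p: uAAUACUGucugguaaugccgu
mmu-miR-200a-5p: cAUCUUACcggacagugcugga
mmu-miR-200b-5p: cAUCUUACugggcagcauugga
mmu-miR-141-5p: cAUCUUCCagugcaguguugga
The AACACUG seed was shared by miR-200a-3p and miR-141-3p, and the AAUACUG seed by miR-200b-3p, miR-200c-3p and miR-429-3p. The seeds differ by C4U, with positions counted from 1 at the 5′ end, and none of the other mouse miRNAs among 1679 mature sequences carried either. Over the whole arm, miR-200a-3p and miR-141-3p were identical in 20 of 22 bases (C17A and U22G), as were miR-200b-3p and miR-200c-3p over the bases compared (U11G and A22G). Among the 5p arms, miR-200a-5p and miR-200b-5p shared the seed AUCUUAC. How the counting handled reads that fit more than 1 of these arms was not stated.

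In the annotation of GRCm38.p6 the genes lie in 2 clusters, each on the minus strand. On chromosome 4, Mir429 (156053905 to 156053987), Mir200a (156054896 to 156054985) and Mir200b (156055681 to 156055750) span 1846 bp inside introns of the protein-coding gene Ttll10. Mir200a and Mir200b also lie in introns of the noncoding transcript Gm13648, and Mir429 lies in one of its exons. On chromosome 6, Mir141 (124717914 to 124717985) and Mir200c (124718322 to 124718390) span 477 bp in an intron of the noncoding gene Gm15884, and Mir141 also overlaps an exon of Gm29008. The nearest protein-coding neighbour of Mir141 is Phb2, whose end lies 964 bp away. The 3 miRNAs of chromosome 4 are called the trio and the 2 of chromosome 6 the pair from here on, and each cluster holds both seeds.

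Every 3p arm was most abundant in lung. MiR-200a-3p ranked 13 among lung miRNAs at 13244 RPM ± 4857 (SD, n = 35, range 4423 to 21251), and miR-141-3p ranked 22 at 6260 RPM ± 2950 (range 1832 to 12576). MiR-429-3p (1267 RPM ± 391), miR-200b-3p (1225 RPM ± 273) and miR-200c-3p (716 RPM ± 277) followed at ranks 53, 54 and 63. The 5p arms were minor strands there, at 40.8 RPM ± 12.3 for miR-141-5p, 27.0 RPM ± 11.5 for miR-200a-5p and 5.54 RPM ± 2.57 for miR-200b-5p. Summed over lung libraries, they amounted to between 0.204% and 0.663% of their 3p partners.

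**Figure D1:**
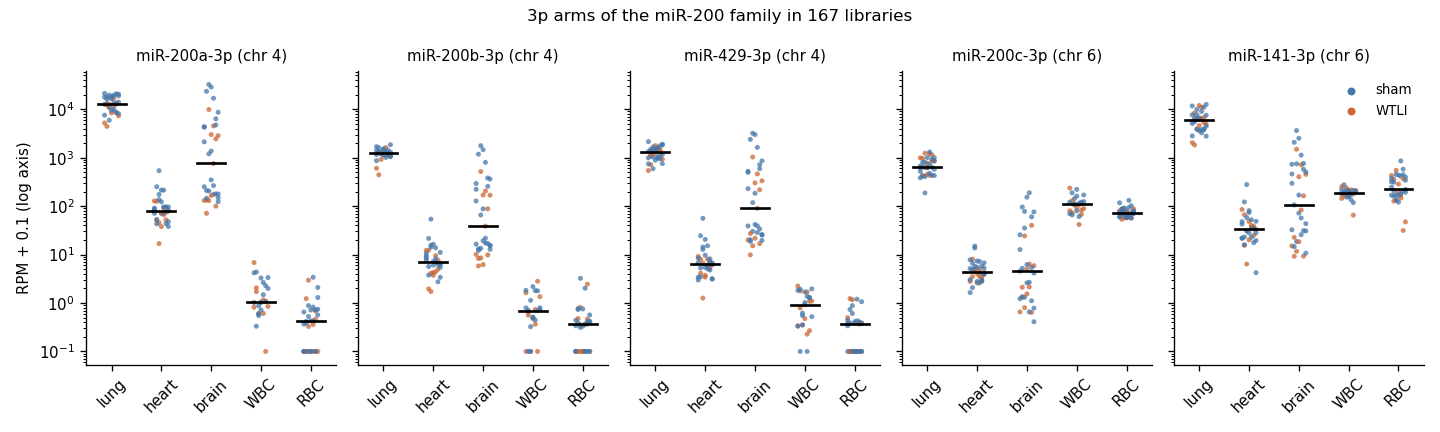
RPM of the 5 abundant 3p arms (log axis, with 0.1 added so that zeros show) in lung, heart, brain, WBC and RBC, 1 point per library, coloured by sham or WTLI, with a bar at the median. Trio members have medians below 1 RPM in blood while the pair stays between 73.4 and 221 RPM, and in brain each arm spreads over more than 2 log10 units.

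Heart held low levels of every 3p arm. MiR-200a-3p averaged 104 RPM ± 92.5 in heart (SD, n = 35, median 79.3), miR-141-3p 45.3 RPM ± 47.2, and the other 3p arms less than 10 RPM each, with miR-200c-3p lowest at 4.95 RPM ± 2.86. In brain, the median of miR-200a-3p was 760 RPM, but single libraries ran from 71.0 to 32360 RPM. Median brain levels of the remaining 3p arms were 106 RPM for miR-141-3p, 90.03 RPM for miR-429-3p, 38.5 RPM for miR-200b-3p and 4.45 RPM for miR-200c-3p.

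Blood showed a different composition. MiR-200c-3p measured 114 RPM ± 47.7 in WBC (SD, n = 27, range 41.6 to 236) and 74.8 RPM ± 17.6 in RBC (SD, n = 35, range 53.4 to 131), and no blood library fell below 143 counts of it. MiR-141-3p measured 186 RPM ± 42.5 in WBC and 284 RPM ± 170 in RBC. The trio was near the limit of detection in the same libraries. MiR-200a-3p, the highest member in lung, had a median of 0.962 RPM in WBC and 0.317 RPM in RBC, with 13 of 35 RBC libraries at 0 counts and none above 12. MiR-200b-3p and miR-429-3p were at 0 counts in 13 and 15 RBC libraries. Pooled over RBC libraries, 61 counts of miR-200a-3p stood beside 33526 counts of miR-141-3p (0.182%), and 47 counts of miR-200b-3p beside 9040 of miR-200c-3p (0.52%), although each of these partners differs by few bases.

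Tissues were compared in the sham libraries with limma, and a miRNA was called at an adjusted p under 0.05 (Benjamini-Hochberg over the 524 miRNAs tested) and a fold change of at least 2.25, which is 1.17 on the log2 scale. A filter on low counts keeps a miRNA that is high in a single tissue, so the counts of members called describe the members and are not support. All 8 members were called higher in lung than in heart, where 17.9% of all miRNAs tested were higher, and log2 differences ran from 3.94 for miR-200b-5p to 6.63 for miR-200c-3p. All 8 were also called higher in lung than in brain (38.4% of miRNAs tested) and in lung than in WBC (31.9%). Against RBC, 6 of 8 were called higher in lung (32.3% of miRNAs tested), and the exceptions belonged to the pair, with miR-200c-3p at 0.96 (SE 0.31) and miR-141-5p at 1.04 (SE 0.39) on the log2 scale. These were called too with edgeR, TMM or library-size scaling, each of which gave 8 of 8. The lung direction of the 5 abundant 3p arms held under all 6 other settings tried, although miR-200c-3p lost its call against WBC in 1 of them. Among these, total-count scaling moved the median of all miRNAs from 0.52 to -1.16 for lung against brain and the split of calls from 201 higher and 155 lower to 101 higher and 261 lower.

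Below lung, the order differed by cluster. By median RPM in sham libraries it was brain, heart, WBC and RBC for the trio, with miR-200b-3p not called between brain and heart and no member called between WBC and RBC. For miR-200c-3p it was WBC, RBC, brain (5.11 RPM) and heart (5.04 RPM), and for miR-141-3p it was RBC, WBC, brain and heart. In each of the 4 comparisons of heart or brain with a blood fraction, the 3p arms of the trio were called higher in the organ and miR-200c-3p, miR-141-3p and miR-141-5p were called lower, which was 6 of 8 members each time. The share of all miRNAs called was 66.6% and 65.3% for heart against WBC and RBC, and 78.6% and 78.2% for brain. MiR-141-3p in brain against WBC was the exception to scaling, from -3.65 to 0.31 on the log2 scale over other settings. Heart and brain differed by 4 of 8 members (68.7% of miRNAs called), with miR-200a-3p, miR-429-3p and miR-200a-5p higher in brain. MiR-200c-3p was called higher in heart there, but its direction turned under other scalings. The count of 4 moved with the tool, the scaling and the strains used. WBC and RBC differed by 0 of 8 members (16.4% called; 2 of 8, the arms of miR-141, at an unadjusted p under 0.05, against 63.4% of all miRNAs).

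The ratio of the clusters was taken in each library as log2 of the summed 3p counts of the pair over those of the trio, with 0.5 counts added to each sum. It averaged -1.19 ± 0.37 in lung (SD, n = 35), -1.30 ± 0.56 in heart (n = 35) and -3.07 ± 0.72 in brain (n = 35), so that the pair made up on average 30.8%, 29.4% and 11.6% of the family's 3p reads. In WBC it averaged 6.87 ± 1.15 (SD, n = 27) and in RBC 8.50 ± 1.24 (SD, n = 35), with the pair at 99.0% and 99.7%. All 62 blood libraries had a ratio above 0 and 104 of 105 organ libraries one below 0. By seed, the AACACUG arms made up 84.8% of the 3p reads in lung, 86.2% in heart and 85.2% in brain, against 62.4% in WBC and 74.9% in RBC. The cluster ratio and the seed shares are descriptions without a test.

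In lung, the organ in the field, no member met the call threshold after WTLI in either strain. In C3H lung, 0 of 8 members were called where 9.71% of 350 miRNAs were, and in C57 lung 0 of 8 where 6% were. At an unadjusted p under 0.05 the counts were 1 and 0 of 8, against 41.7% and 33.4% of all miRNAs, and edgeR and DESeq2 also called 0 in both strains. Every log2 difference lay between -0.55 and 0.36 in C3H lung and between -0.35 and 0.36 in C57 lung.

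MiR-200b-3p had the largest of these differences. Its lowest, median and highest values were 869, 1180 and 1330 RPM in sham C3H lung (n = 8) and 443, 1068 and 1619 RPM after WTLI (n = 7). The irradiated lungs thus straddled the sham range, with 2 below it and 1 above it. The log2 difference was -0.55 (SE 0.17, limma adjusted p = 0.0133), which passes without the fold minimum, as did 17.1% of all miRNAs in the lower direction. It was -1.11 (adjusted p = 0.0028) among the libraries titled A and -0.13 (adjusted p = 0.63) among those titled B. The labels do not say what the letters mean. With total-count scaling the difference was -0.30 (adjusted p = 0.19), and in a joint fit of all tissues it was -0.48 (adjusted p = 0.638, and 0.63 with the mouse added as a block). With another tool, TMM, a covariate or C3H mice alone (6 fits) the adjusted p was 0.036 or lower. Leaving out 1 library at a time gave adjusted p-values from 0.00204 to 0.0516.

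The most abundant arm also depended on the scaling. MiR-200a-3p measured 7547, 9716 and 13142 RPM (lowest, median, highest) in sham C3H lung and 4423, 8432 and 11904 RPM after WTLI. Of 7 irradiated lungs, 3 lay below every sham lung. The difference was -0.29 (SE 0.18, adjusted p = 0.239) with quantile normalisation and -0.66 (adjusted p = 0.0068) with TMM scaling, still under the fold minimum. Its partner miR-141-3p, with the same seed, differed by -0.92 (adjusted p = 0.051) in libraries titled A and by 0.55 (adjusted p = 0.287) in those titled B.

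Mean RPM was higher in irradiated C3H lung for arms of both clusters. MiR-141-5p was between 17.6 and 43.5 RPM in sham C3H lung (median 36.8) and between 46.9 and 68.1 RPM after WTLI (median 51.6), so the groups did not overlap. Such separations were not counted over all miRNAs, of which 41.7% had an unadjusted limma p under 0.05 in C3H lung. MiR-200c-3p was between 432 and 853 RPM in sham lungs (median 630) and between 766 and 1236 RPM in irradiated ones (median 991), and 6 of 7 irradiated lungs exceeded all 8 sham lungs. MiR-429-3p spread both ways, from 745 to 1094 RPM in sham lungs (median 970) and from 543 to 1565 RPM after WTLI (median 1189), with 4 irradiated lungs above and 2 below the sham range. On the quantile scale of the main test the differences of miR-141-5p and miR-200c-3p were 0.36 (SE 0.19, adjusted p = 0.14) and 0.31 (SE 0.21, adjusted p = 0.266). With total-count scaling, which keeps the RPM scale and moves the median of all miRNAs from -0.08 to 0.27, they were 0.65 (adjusted p = 0.014) and 0.66 (adjusted p = 0.046). MiR-200a-5p of the trio averaged 23.0 RPM in sham and 34.0 RPM in irradiated lungs, and 4 of 7 irradiated lungs exceeded all 8 sham lungs. Its difference was 0.15 (adjusted p = 0.684) on the quantile scale and 0.59 (adjusted p = 0.099) with total-count scaling. On the quantile scale miR-200b-5p differed by -0.06, miR-141-3p by -0.10 and miR-429-3p by -0.12 (adjusted p of 0.674 or more).

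In C57 lung, the irradiated values sat inside the sham range for every member except miR-141-5p. MiR-200a-3p was 12188, 12685, 13426, 17145 and 17172 RPM in the 5 irradiated lungs and between 5944 and 21251 RPM in the 15 sham lungs. MiR-200c-3p was 416, 431, 454, 623 and 862 RPM after WTLI against 187 to 1311 RPM in sham. MiR-141-5p alone had an irradiated value above all sham lungs, at 74.4 RPM in the 1 irradiated female. The direction for miR-200a-3p turned with the scaling, from 0.23 with quantile normalisation to -0.31 with TMM and -0.19 with total-count scaling. The other log2 differences on the quantile scale were 0.36 for miR-141-3p, 0.27 for miR-141-5p, -0.01 for miR-429-3p, -0.19 for miR-200b-3p, -0.32 for miR-200c-3p, -0.34 for miR-200b-5p and -0.35 for miR-200a-5p (adjusted p of 0.282 or more).

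**Figure D2:**
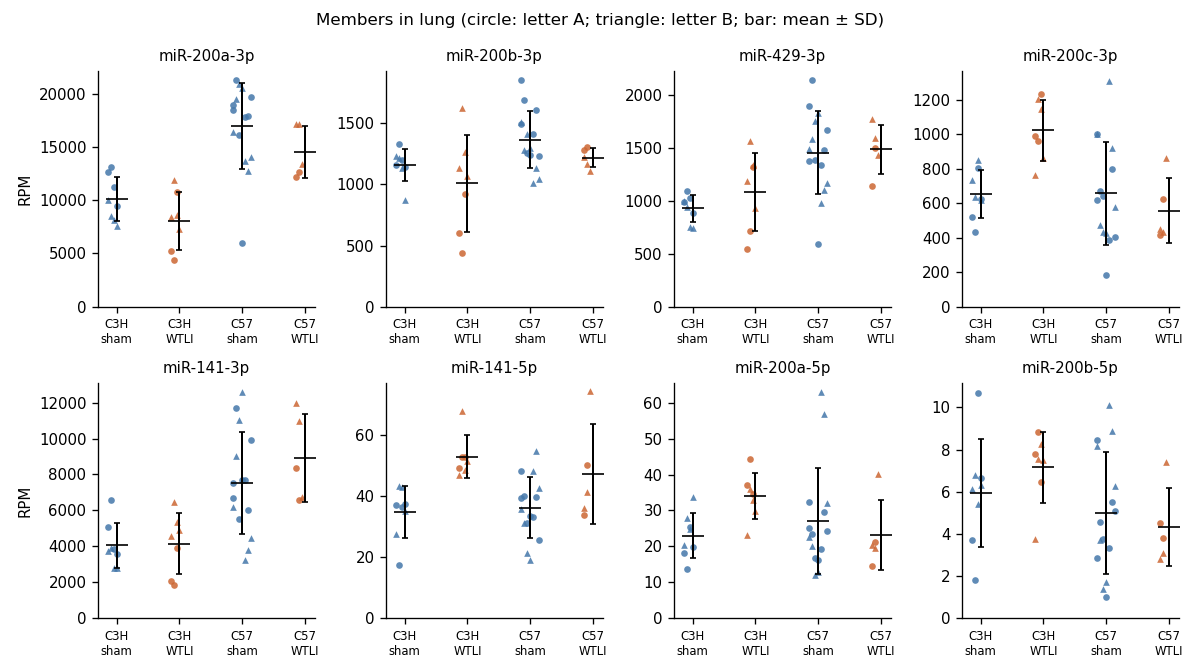
RPM of all 8 members in lung for sham (blue) and WTLI (orange) mice of each strain, 1 point per mouse, circles for libraries titled A and triangles for B, with mean ± SD. Groups overlap for every member except miR-141-5p in C3H mice, where all 7 irradiated lungs lie above the 8 sham lungs. Such separations were not counted over all miRNAs.

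The strain difference of the WTLI effect was tested as an interaction. In lung, 0 of 8 members were called (0.286% of miRNAs). MiR-200c-3p came nearest, at 0.64 (SE 0.30, p = 0.042 before adjustment, limma adjusted p = 0.353), followed by miR-200a-3p at -0.52 (SE 0.26, adjusted p = 0.375). In heart, 0 of 5 members tested were called (0% of miRNAs). The lung and heart changes were also set against each other in a joint fit, and 0 of 8 members were called in C3H (5.35% of miRNAs) or in C57 mice (3.21%). At an unadjusted p under 0.05 there were 0 in C3H (20.1% of all miRNAs) and 2 in C57 mice (16.3%), namely miR-200a-3p and miR-200b-3p. The cluster ratio in lung was -1.38 ± 0.12 in sham C3H mice (SD, n = 8, range -1.52 to -1.15) and -0.97 ± 0.21 after WTLI (n = 7, range -1.33 to -0.68). In C57 mice it was -1.29 ± 0.45 in sham (n = 15) and -0.88 ± 0.19 after WTLI (n = 5). The ratio was thus higher on average after WTLI in each strain, with overlapping ranges. In C57 lung it also differed between the sexes, which the groups hold in unequal numbers, at -1.53 ± 0.22 in sham females (n = 7), -1.07 ± 0.51 in sham males (n = 8; -1.23 ± 0.26 without mouse 1052) and -0.83 ± 0.18 in irradiated males (n = 4). Other organs did not share 1 direction. In C57 heart the mean ratio was -1.76 in sham and -0.95 after WTLI, in C3H heart -0.89 and -1.04, in C3H brain -2.87 and -3.09, and in C57 brain -3.07 and -3.36. By sex, C57 heart averaged -2.06 in sham females, -1.50 in sham males and -0.89 in irradiated males.

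Marker lists were read beside the lung result. In C3H lung, 2 of 4 heart muscle miRNAs were called lower (miR-208a-3p and miR-499-5p) and 1 of 5 ciliated-cell miRNAs higher (miR-449a-5p), while 0 of 6 further epithelial, 0 of 5 mesenchymal, 0 of 2 endothelial, 0 of 5 leukocyte, 0 of 4 erythroid and 0 of 3 neuronal miRNAs were called. In C57 lung, 1 of 3 neuronal miRNAs was called higher (miR-9-5p) and none of the other lists had a call. Summed over its list, the endothelial level was 380360 to 444380 RPM in sham C3H lung (median 413970) and 297020 to 390150 RPM after WTLI (median 310730), and the heart muscle level 4759 to 7515 RPM and 2569 to 5226 RPM. The erythroid sum had medians of 409 RPM in sham and 1063 RPM after WTLI, with overlapping ranges. On the quantile scale miR-126a-5p differed by -0.73 (limma adjusted p = 0.0085), under the fold minimum, and miR-126a-3p by 0.00. Their part in the members' values was not tested.

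A sham C57 lung library, from mouse 1052, stood apart. It had the lowest value of its group for miR-200a-3p (5944 RPM against 12753 to 21251 RPM in the other 14), miR-429-3p (592 RPM), miR-200c-3p (187 RPM) and miR-200b-5p (0.988 RPM), while miR-141-3p was inside the range. Of the marker lists, 1 of 6 further epithelial miRNAs lay above the other 14 libraries (miR-96-5p, 856 RPM against 181 to 537) and 2 below (miR-375-3p, 132 RPM against 197 to 444, and miR-205-5p). Of 5 leukocyte miRNAs, 1 lay above (miR-142a-5p, 7840 RPM against 1105 to 4876) and 1 below. Of 5 mesenchymal miRNAs 2 lay below, among them miR-145a-5p (325 RPM against 1002 to 1759), of 5 ciliated-cell miRNAs 1 lay above and 2 below, and of 4 heart muscle miRNAs 1 lay below. The endothelial, erythroid and neuronal lists stayed inside. Their part in the low family values was not tested. The cluster ratio of this library, at 0.02, was the only one above 0 in an organ, and without it the sham C57 mean was -1.38.

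Outside lung, WTLI contrasts gave 0 members called in each tissue and strain in the limma fits of single tissues. In heart these were 0 of 5 tested in C3H (6.73% of miRNAs called) and 0 of 5 in C57 (0.962%). In brain, WBC and RBC they were 0 of 7, 0 of 4 and 0 of 3 in each strain, where 0% of all miRNAs were called. Over the 10 contrasts together, 5 of 54 tests of a member had an unadjusted p under 0.05, against 17.3% of the 3230 tests of all miRNAs. In heart these were miR-141-3p in C3H mice (-0.92, SE 0.44, adjusted p = 0.138) and miR-200b-3p in C57 mice (-1.28, SE 0.47, adjusted p = 0.122). In blood they were miR-141-5p in C3H WBC (0.72, SE 0.34, adjusted p = 0.661) and miR-141-3p in C3H RBC (-0.73, SE 0.30, adjusted p = 0.219). The last came from libraries titled B, where irradiated mice averaged 133 RPM against 381 RPM in sham and 4 of 4 lay below all sham (-1.22, adjusted p = 0.105), whereas those titled A averaged 445 against 392 RPM (-0.05 on the quantile scale). The other heart differences were -0.80 for miR-429-3p, -0.67 for miR-200a-3p, -0.58 for miR-200b-3p and -0.34 for miR-200c-3p in C3H mice. As means of log2 RPM (0.5 added), miR-200a-3p differed there by -1.38 in libraries titled A and -0.17 in those titled B. MiR-200c-3p differed by -0.44 and -0.47. Sham mouse 2075, titled A, was the highest of its group for all 5 of the 3p arms. In C57 heart the other differences were -0.69 for miR-200a-3p, -0.53 for miR-429-3p, -0.20 for miR-200c-3p and 0.08 for miR-141-3p. In C3H WBC they were -0.22 for miR-200c-3p, 0.05 for miR-200a-3p and 0.04 for miR-141-3p. By mean RPM, miR-200a-3p (0.716 against 0.834 in sham) and miR-141-3p (162 against 189) were lower there after WTLI, so these signs depended on the scale. The 4 differences in C57 WBC lay between -0.09 (miR-200a-3p and miR-200c-3p) and 0.16 (miR-141-3p), with miR-141-5p at 0.15. In RBC, miR-141-5p differed by 0.41 in C3H and 0.23 in C57 mice, miR-200c-3p by 0.23 and -0.18, and miR-141-3p by -0.27 in C57 mice. By mean RPM, miR-200c-3p was lower after WTLI in C3H RBC (79.2 against 88.4 RPM), so its sign depended on the scale. The members not given here fell under the count filter of their tissue.

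Brain values spread widely. Among the 328 miRNAs with a mean of at least 10 RPM in brain, ranked by the SD of log2(RPM + 1) about their group means, the 5 family 3p arms took the first 5 places, from 2.70 for miR-200a-3p to 2.07 for miR-200c-3p. The next places went to miR-183-5p (1.88), miR-182-5p (1.53) and miR-96-5p (1.26), a cluster known from sensory epithelia. The 3p arms moved together across the 35 brain libraries. Deviations of miR-200a-3p from group means had r = 1.00 with miR-429-3p, 0.96 with miR-141-3p and 0.90 with miR-200c-3p, which describes libraries that share depth and dissection and carries no test.

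Brain levels differed by sex in sham C57 mice, with a wide spread left within the females. This comparison was made after the brain values had been seen, with the 6-group fit used for lung. In sham C57 females, miR-200a-3p was 209 RPM at the lowest, 8673 RPM at the median and 32360 RPM at the highest (n = 7), and in sham C57 males 124, 215 and 1367 RPM (n = 8). Among the females, 6 of 7 exceeded every male. MiR-200c-3p was 5.11, 75.8 and 188 RPM (lowest, median, highest) in females and 0.31, 1.18 and 35.1 RPM in males, and 5 of 7 females exceeded every male. MiR-141-3p was 106, 731 and 3635 RPM in females and 10.6, 30.8 and 746 RPM in males, where the male with 746 RPM was again mouse 1052, and 3 of 7 females exceeded it. That library also had 765 RPM of the epithelial miR-375-3p against 16.7 to 108 RPM in the other 14 sham C57 brains, with 2 of 6 further epithelial miRNAs above them in all, and its cluster ratio of -0.82 was the highest in brain.

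The 5 abundant 3p arms were called higher in female than in male sham C57 brain, where 3.65% of miRNAs tested were higher (18 miRNAs, the members included). The 5p arms were called as well, but male medians were 0 RPM for miR-141-5p, 0.324 RPM for miR-200a-5p and 0.431 RPM for miR-200b-5p. A miRNA that passes the count filter only through the group where it is high has to differ, so the count of 8 describes the members and is not support. MiR-200c-3p was low in males as well, with 4 counts or fewer in 5 of 8, so its difference and those of the 5p arms rest on few male counts. The log2 difference was 4.59 for miR-200a-3p (SE 1.16, limma adjusted p = 0.0058) and 4.50 for miR-200c-3p (SE 1.01, adjusted p = 0.0025). It ranged from 2.25 for miR-200b-5p to 4.75 for miR-200a-5p over the members, and the median over all miRNAs tested was -0.14. All 8 were also called with edgeR and DESeq2. MiR-200b-5p was the single member to lose its call when 1 library was left out (1.99, adjusted p = 0.0503, without female mouse 1085), and it fell below the count filter in 1 other such fit. The female median exceeded the male median for miR-200a-3p among libraries titled A (16521 against 214 RPM) and among those titled B (8673 against 222 RPM).

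The same sex comparison gave 0 members called in lung (2.27% of miRNAs), heart (10.1%), WBC (7.62%) and RBC (6.12%). At an unadjusted p under 0.05 the counts of members were 3 of 8 in lung, 0 of 5 in heart, 2 of 5 in WBC and 0 of 5 in RBC, where 28.7%, 49.3%, 26.7% and 29.9% of all miRNAs had one. The difference between organs was then tested directly. That test was added after the female excess in brain had been seen, so its p-values are no independent support. The 5p arms and miR-200c-3p again rest on few counts in male brain, as the 5p arms do in heart. In brain against lung, 7 of 8 members had a larger female excess in brain (1.81% of 551 miRNAs), at 5.26 for miR-200a-3p (SE 1.21, limma adjusted p = 0.0027), with miR-200b-5p the exception (0.90, adjusted p = 0.542). In brain against heart, 5 of 8 did (2.63% of 533 miRNAs), at 4.87 for miR-200a-3p (SE 1.44, adjusted p = 0.025). MiR-429-3p, miR-141-5p and miR-200b-5p were not called there. With edgeR or library-size scaling 4 members were called, and fewer with TMM scaling.

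Other groups bear on this comparison without settling it. The 1 irradiated C57 female had 2444 RPM of miR-200a-3p in brain, above the 4 irradiated males (130, 134, 165 and 760 RPM). C3H brains were all female and spread as widely, from 150 to 23439 RPM in sham (median 1237) and from 71.0 to 9859 RPM after WTLI (median 2841). High values were therefore found in females of both strains, and low values in females and males alike. Against C3H sham females, C57 sham females were called higher for 3 of 8 members in brain (2.03% of miRNAs), namely miR-200c-3p (3.41, SE 0.85, adjusted p = 0.0068), miR-141-5p and miR-200b-5p, and DESeq2 called 0 of them and edgeR 1. These were near the floor in C3H sham brain, where miR-200b-5p was at 0 counts in 5 of 8 libraries, miR-141-5p in 3 of 8, and miR-200c-3p had a median of 3.52 RPM, so the 3 calls describe them and are not support. All 8 had an unadjusted p under 0.05, as did 33.5% of all miRNAs, and leaving out 1 library moved the count from 1 (without mouse 2075, 2085, 2087, 1076 or 1085) to 7 (without mouse 2074 or 1074). In lung that strain comparison called 0 of 8 members (5.54% of miRNAs; 2 of 8 at an unadjusted p under 0.05, against 22.4% of all). In heart it called 1 of 5, miR-141-3p at -1.35 (SE 0.45, adjusted p = 0.0248; 11.4% of miRNAs). That call ended without mouse 2074, 2075 or 1087, and mouse 2075 had 278 RPM against 33.7 to 122 RPM in the other 7 C3H sham hearts. In that library 4 of 6 further epithelial miRNAs (miR-96-5p at 86.8 RPM against 5.28 to 23.8), 5 of 5 ciliated-cell, 4 of 5 leukocyte (miR-142a-5p at 8002 RPM against 509 to 2008), 3 of 4 erythroid and 3 of 3 neuronal miRNAs were also above the other 7, and 0 of 4 heart muscle miRNAs were outside their range. Their part in the family values was not tested. In WBC and RBC it called 0 of 5 (16.1% and 7.19%; 2 and 0 at an unadjusted p under 0.05, against 34.3% and 30.6% of all).

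Marker lists were read beside the brain result. Of 6 further epithelial miRNAs, 3 were called higher in female C57 brain, and these were the miR-183, miR-96 and miR-182 arms. MiR-183-5p was 379, 7546 and 28387 RPM (lowest, median, highest) in sham C57 females and 337, 522 and 1209 RPM in males. Of 4 erythroid miRNAs, 1 was called higher (miR-486a-5p), and the ciliated-cell, mesenchymal, leukocyte, endothelial, heart muscle and neuron lists had none called. MiR-124-3p, the neuronal marker, was nonetheless 1081, 1724 and 3582 RPM in those females and 3464, 4626 and 5927 RPM in the males, ranges that barely overlap. Their part in the family's difference was not tested.

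**Figure D3:**
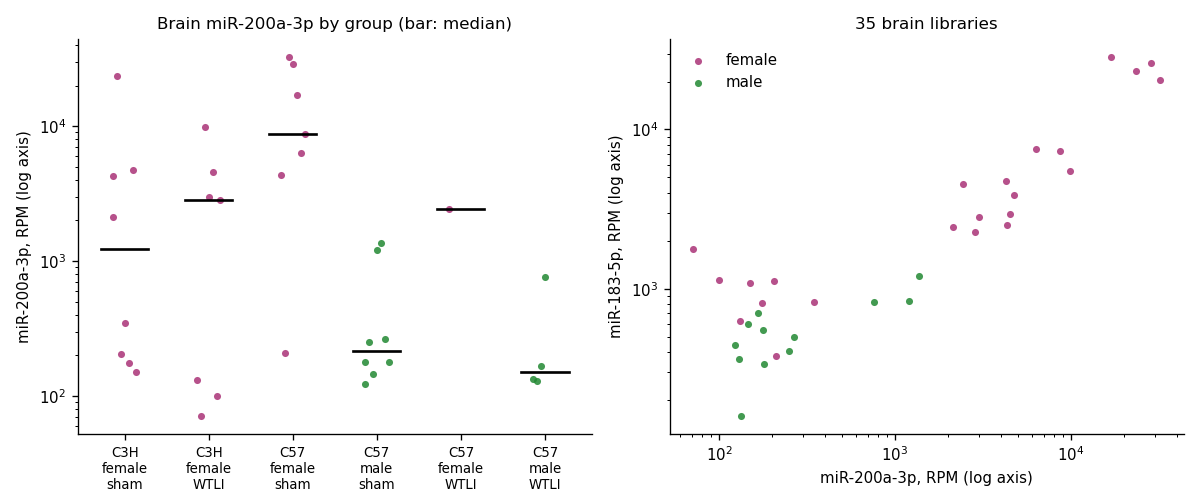
Left, brain miR-200a-3p (RPM, log axis) by strain, sex and irradiation, 1 point per mouse with a bar at the median. Right, miR-183-5p against miR-200a-3p in the 35 brain libraries (RPM, log axes), where the 4 libraries highest in miR-200a-3p (16870 to 32360 RPM), all from females, are also the 4 highest in miR-183-5p (20472 to 28387 RPM).

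WTLI in C57 brain has to be read with the sex imbalance in view, since 7 of 15 sham mice and 1 of 5 irradiated mice were female. Member differences ran from -1.06 for miR-200a-5p to -2.25 for miR-200b-3p and none was called, with -1.48 for miR-141-5p, -1.72 for miR-429-3p, -1.86 for miR-200a-3p and -2.16 for miR-141-3p. For miR-200b-3p the main difference was -2.25 (SE 1.40, adjusted p = 0.541), with sex as a covariate -1.38 (adjusted p = 0.483), and among males alone -0.99 (adjusted p = 0.411). DESeq2 did call it, at -3.57 (adjusted p = 0.047). MiR-200c-3p differed by -1.67 (SE 1.56, adjusted p = 0.644) in the fit of brain alone and was called in a joint fit of all tissues, at -1.90 both without the mouse in the model (SE 0.52, adjusted p = 0.0436) and with the mouse as a replicate block (adjusted p = 0.0455). In C3H brain the members ran from -0.74 for miR-200a-5p to -0.13 for miR-141-5p, with -0.60 for miR-141-3p, -0.41 for miR-200c-3p, -0.33 for miR-200b-3p and miR-429-3p and -0.32 for miR-200a-3p, and all standard errors were above 1. As means of log2 RPM (0.5 added), miR-200a-3p differed there by -1.86 in libraries titled A and by 0.97 in those titled B. Every other member also changed sign between the letters.

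Within lung, the members were correlated over the 35 libraries as deviations of log2 RPM (0.5 added) from group means, with p-values from permutation within groups (two-sided, adjusted over 10 pairs of 3p arms). MiR-200a-3p and miR-429-3p, neighbours on chromosome 4, were closest, with r = 0.92 and rho = 0.90 (permutation p = 1e-05, the smallest possible with 100000 draws). MiR-200a-3p and miR-200b-3p had r = 0.61 and rho = 0.51 (adjusted permutation p = 0.0012 and 0.0062). Correlation did not stop at the chromosome, since miR-141-3p correlated with all 3 arms of the trio, at r = 0.64 with miR-200a-3p (rho = 0.80), 0.69 with miR-200b-3p (rho = 0.52) and 0.68 with miR-429-3p (rho = 0.77). Each of these had an adjusted permutation p of 0.006 or less and kept r of at least 0.61 without the 2 libraries farthest from the median. Within libraries titled A (n = 17) they were lower, at 0.46, 0.53 and 0.45, than within those titled B (n = 18), at 0.88, 0.63 and 0.89.

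MiR-200c-3p varied in the opposite sense to miR-141-3p, its neighbour within 477 bp. The correlation was r = -0.47 and rho = -0.51 (adjusted permutation p = 0.009 and 0.0054). It was r = -0.45 without the 2 farthest libraries, -0.54 without mouse 1052, and -0.61 on the quantile-normalised scale. Within libraries titled A it was -0.20 (n = 17) and within those titled B -0.74 (n = 18). With the trio, miR-200c-3p had r = 0.20, 0.06 and 0.22 (adjusted permutation p = 0.313, 0.69 and 0.313), and the sign of each changed with the setting. These pooled values joined opposite ones, at 0.64, 0.49 and 0.71 in libraries titled A and -0.49, -0.06 and -0.48 in those titled B. In heart and brain, by contrast, miR-200c-3p and miR-141-3p had r = 0.43 and 0.89 (n = 35 each), given as descriptions.

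**Figure D4:**
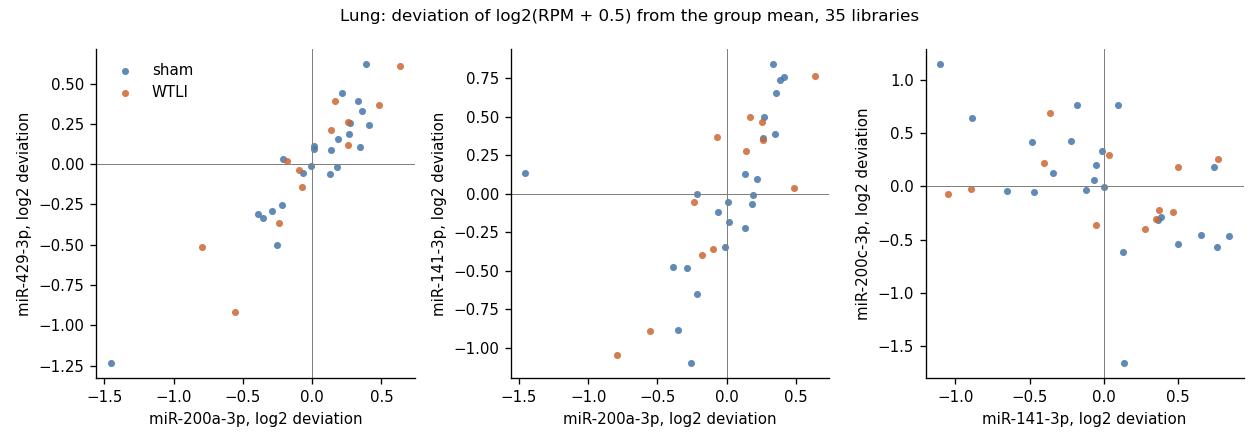
Deviation of log2 RPM (0.5 added) from the group mean in the 35 lung libraries, 1 point per library, sham in blue and WTLI in orange, for 3 pairs of 3p arms. MiR-429-3p (r = 0.92) and miR-141-3p (r = 0.64) rise with miR-200a-3p, whereas miR-200c-3p falls with miR-141-3p (r = -0.47).

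The miRNAs outside the family with the most similar patterns were looked up for 1 arm of each cluster, miR-200b-3p and miR-200c-3p. For these arms, candidates were the 224 miRNAs with a mean of at least 10 RPM in lung, so miRNAs scarce in lung could not appear. Over all libraries of the 5 tissues, log2 levels of miR-200b-3p were most like those of miR-34b-5p (r = 0.91), miR-34b-3p (0.91), miR-96-5p (0.90), miR-34c-3p (0.89) and miR-34c-5p (0.89), mainly ciliated-cell miRNAs. Those of miR-200c-3p were most like miR-449a-5p (0.85), also on the ciliated-cell list, and then miR-21a-5p (0.71), miR-542-5p (0.64), miR-20b-5p (0.64) and miR-450b-3p (0.62), among 224 candidates. Sham C57 medians of miR-449a-5p without mouse 1052 were 111 RPM in lung, 15.9 in RBC and 13.25 in WBC. They were 7.16 RPM in brain and 0.283 in heart. Within lung, deviations of miR-200c-3p were closest to miR-125b-5p and miR-125a-5p (0.88 each), miR-339-5p, miR-30d-5p and miR-361-5p (0.86 each). Those of miR-200b-3p were closest to miR-22-3p (0.79), miR-497a-5p (0.71), miR-32-5p (0.69), miR-223-3p (0.69) and miR-335-5p (0.68). Over the 35 brain libraries, the log2 level of miR-200a-3p was closest to miR-183-5p (0.90), miR-96-5p (0.83) and miR-182-5p (0.81), and the next miRNA was miR-328-3p at 0.36. These likenesses describe libraries that share tissue and depth and carry no test.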

How the data were processed

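Small RNA of 5 tissues was sequenced by the authors, who trimmed reads and aligned them to mouse miRNAs (mm10) in BaseSpace. The deposited tables hold raw read counts per mature miRNA and library, without normalisation by the authors. Use of molecular identifiers in counting was not given in the sources used here, so intervals of single counts cover counting error only. Per the labels, libraries fell into 20 groups by tissue, strain and irradiation, and replicates were separate mice.

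Following the study's methods, counts were transformed to log2 RPM by voom with quantile normalisation and fitted with limma 3.58.1 in R 4.3.3. The filter on low counts (filterByExpr of edgeR 4.0.16, minimum count 10, total 15) and the groups of each fit were chosen here, with all miRNAs in each fit and 1 fit per tissue with 4 groups. Sham tissues were compared in 1 fit of 10 groups, and sexes and strains in fits of 6 groups. Adjusted p-values are Benjamini-Hochberg values over every miRNA in the fit, from limma unless another tool is named, and a call needed an adjusted p under 0.05 and a fold of at least 2.25. Alternatives were edgeR's quasi-likelihood test, DESeq2 1.42.0, TMM or library-size scaling, other filters, covariates, single strains, males alone, leaving out each library, and the mouse as a block, which for WTLI was part of 1 joint fit of all tissues. Mice are the same across tissues, per the labels, and the correlation within a mouse was 0.0175 over all tissues and 0.0570 over lung and heart. Fits were tested on counts simulated with a single dispersion for all miRNAs and a log2 change of 2. All 44 changed miRNAs tested in lung and all 53 in brain were recovered, with 0 false calls. The wide spread of the members in brain lay outside that setting.

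The rule was to name all 8 members in every comparison with their values, and it was kept for the WTLI contrasts of the members that passed the filter, while other comparisons give those called and the rest by count or range. Also named are the miRNAs most like miR-200b-3p and miR-200c-3p and those of the marker lists that were called. The members and lists were chosen with earlier results of these data known. Fits by sex and by strain in brain, heart and blood were added after seeing the data. So was the test of the sex difference in brain against lung and heart. Fits by letter, a joint fit of all tissues without the mouse, likeness to miR-200a-3p in brain and values without mouse 1052 were later additions too. The plasma libraries of the study were not analysed here.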

Additional observations from a re-analysis of the deposited data

Results flagged for a closer look

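Libraries far from the others of their group were looked for in 96 group values of members, and 22 were marked, 14 of them in brain or blood. Chance marks about 1 in 20 only where values are independent and normally distributed, and here members share libraries and RPM values are skewed, so the number of marks has no chance level to be read against. In sham C3H brain, mouse 2074 was the highest for 7 members, at 23439 RPM of miR-200a-3p (the others reached 4739 RPM), 1181 of miR-200b-3p, 2393 of miR-429-3p, 95.6 of miR-200c-3p, 2074 of miR-141-3p, 47.8 of miR-200a-5p and 9.65 of miR-141-5p. In irradiated C3H brain, mouse 2082 was the highest for miR-200b-3p (517 RPM) and miR-200c-3p (24.2 RPM). In irradiated C57 brain, the only female, mouse 1089, was the highest for miR-200a-3p (2444 RPM), miR-200c-3p (39.97 RPM), miR-200a-5p (16.2 RPM) and miR-141-5p (2.44 RPM), and was also highest for miR-200a-5p in lung (40.2 RPM).

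In sham C3H heart, mouse 2075 was highest for all 5 of the 3p arms, at 540 RPM of miR-200a-3p (the others 43.4 to 251), 53.7 of miR-200b-3p, 56.0 of miR-429-3p, 13.6 of miR-200c-3p and 278 of miR-141-3p. Markers of other epithelial, ciliated, leukocyte, erythroid and neuronal cells were high in the same library too, with 141.4 RPM of miR-34c-5p (the others 50.7 to 80.7) and 8002 RPM of miR-142a-5p (the others 509 to 2008), and their part in its family values was not tested. Single values also stood apart for miR-141-5p in irradiated C3H lung (68.1 RPM, mouse 2091), miR-200b-3p in sham C3H lung (869 RPM, mouse 2088, the lowest) and miR-200a-3p in irradiated C57 WBC (6.74 RPM, mouse 1069).

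A limma test of the difference itself was added after the brain values had been seen. For the members listed here, the female excess in sham C57 brain differed from that in other organs. For miR-200c-3p and the 5p arms these sizes rest on few counts, since male sham brain had medians of 1.18 RPM of miR-200c-3p, 0.324 of miR-200a-5p and 0 of miR-141-5p, and miR-200a-5p was at 0 counts in 9 of 15 sham C57 hearts. Against lung it was larger by 5.26 for miR-200a-3p, 4.38 for miR-200b-3p, 4.43 for miR-429-3p, 4.47 for miR-200c-3p, 5.02 for miR-141-3p, 3.85 for miR-200a-5p and 2.98 for miR-141-5p on the log2 scale. Against heart it was larger by 4.87 for miR-200a-3p, 3.93 for miR-200b-3p, 4.19 for miR-200c-3p, 4.68 for miR-141-3p and 3.56 for miR-200a-5p. MiR-200b-5p was not called against lung, nor were miR-429-3p, miR-141-5p and miR-200b-5p against heart.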

How the results depend on the processing

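Of the counts of members called, cluster ratios and lung correlations recomputed under alternatives, 697 counts were equal to those reported, 21 changed within 1.5 times, 22 moved further and 6 correlations reversed, while 95 other values kept their direction and, where tested, their side of the threshold. The changes within 1.5 times were in sham tissues (6 against 8 members for lung and WBC in C3H mice alone) or in the sex and strain comparisons of brain (7 against 8 for sex without mouse 1076 or 1085). After WTLI, C3H lung had 1 member called without the fold minimum, and C57 brain had 1 with DESeq2, 1 in a joint fit of all tissues and 1 in that joint fit with the replicate block by mouse. The block thus changed no count beside the same joint fit without it, and no other count of members where it was run. Sham heart against brain had 7 members with edgeR, 7 with library-size scaling and 2 in C3H mice alone (4 in the report), and WBC against RBC had 2 in C57 mice alone. C57 against C3H females had 1 member in brain with edgeR and 0 with DESeq2 (3 in the report). Leaving out 1 library at a time gave 1 to 7 there, with 7 without mouse 2074 or mouse 1074 and 1 without mouse 2075, 2085, 2087, 1076 or 1085. It gave 0 to 1 in heart (0 without mouse 2074, 2075 or 1087) and 0 to 1 in WBC (1 without mouse 1073). The sex difference of brain against heart had 3 members with TMM scaling (5 in the report). The correlation of miR-200c-3p with miR-200a-3p was -0.26 without mouse 1052 and -0.32 without the 2 farthest libraries, with miR-200b-3p it was -0.37 on the quantile scale, and with miR-429-3p it was -0.090 on that scale, -0.15 without mouse 1052 and -0.19 without the 2 farthest. The cause was not tested. Depth limits the trio in blood and the 5p arms outside lung, where most libraries hold few counts.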
